A study of Mus musculus with 4 samples.

Results

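Cytotoxic CD4+ T cells (Tc) were examined in the spleens of 4 mice that had received an allogeneic transplant and carried leukemia. They were chosen by measured values: a CD4+ Tc counted as cytotoxic if it held at least 1 unique molecular identifier (UMI, a tag that counts each captured RNA molecule once) of at least 3 of the 6 genes Ccl5, Gzmk, Gzmb, Prf1, Nkg7 and Eomes, and none of Foxp3, Tcf7, Mki67 and Top2a. A CD4+ Tc had a UMI of a CD3 gene and of Cd4 and none of Cd8a, Cd8b1 and the erythroid gene Klf1. Of 1759 CD4+ Tc, 189 (10.7%) met the rule, among 11632 cells kept of 15784 barcodes.

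All recipients were BALB/c mice given lethal total body irradiation, 10000 WEHI-3B acute myeloid leukemia cells, C57BL/6 BM and, on day 2, 200000 donor Tc, and spleens were taken on day 23. Donors of 2 recipients carried floxed Havcr2, the gene of TIM-3, and no cre (Havcr2fl/fl). Donors of the other 2 carried in addition a cre driven by the E8i element of the CD8 locus (Havcr2fl/fl;E8icre/+), which acts in CD8+ cells, so that CD4+ Tc of both genotypes are meant to keep Havcr2. Each mouse gave 1 library of 3′ single-cell RNA-Seq in which an Ab to donor H-2Kb carried an oligo barcode, and genotypes are given here as the labels state them. The labels name a pan-Tc enrichment kit and the study's text a sort, and how the Tc were isolated is therefore not certain.

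CD4+ Tc are mostly known as helpers that instruct B cells, macrophages and CD8+ Tc through cytokines and CD40 ligand. A share of them can acquire the killing program of CD8+ Tc and NK cells, in which perforin (Prf1) opens the target membrane for granzymes (Gzmb, Gzmk), Nkg7 takes part in granule release, Ccl5 attracts further leukocytes, and the T-box factor Eomes drives many of these genes. In graft-versus-host and graft-versus-leukemia reactions, allogeneic CD4+ Tc recognize MHC class II, whereas CD8+ Tc recognize MHC class I.

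The promoters of 3 of the 6 genes are shown because they hold the letters bound by factors of the killing program. They run from 250 bases before to 50 bases after the RefSeq start on GRCm38.p6 and are written 5′ to 3′ on the strand of the gene. Capitals mark TCACACC or its reverse complement GGTGTGA, the core of a T-box site, in Nkg7 (chr7:43436888-43437187, plus strand) and Gzmk (chr13:113180916-113181215, minus strand), and TGTGGTT, a RUNX site, in Gzmb (chr14:56262285-56262584, minus strand).
Nkg7: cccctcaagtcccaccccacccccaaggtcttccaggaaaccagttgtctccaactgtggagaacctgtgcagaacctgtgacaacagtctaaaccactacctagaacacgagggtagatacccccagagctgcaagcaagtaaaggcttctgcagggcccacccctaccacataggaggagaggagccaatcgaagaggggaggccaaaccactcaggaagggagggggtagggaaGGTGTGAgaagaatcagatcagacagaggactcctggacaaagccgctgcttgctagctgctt
Gzmk: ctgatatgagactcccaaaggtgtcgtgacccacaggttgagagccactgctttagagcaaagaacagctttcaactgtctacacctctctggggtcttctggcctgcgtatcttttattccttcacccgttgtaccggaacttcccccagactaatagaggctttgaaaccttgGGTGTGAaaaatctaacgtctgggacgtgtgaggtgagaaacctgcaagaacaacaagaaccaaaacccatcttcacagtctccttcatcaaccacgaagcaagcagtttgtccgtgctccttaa
Gzmb: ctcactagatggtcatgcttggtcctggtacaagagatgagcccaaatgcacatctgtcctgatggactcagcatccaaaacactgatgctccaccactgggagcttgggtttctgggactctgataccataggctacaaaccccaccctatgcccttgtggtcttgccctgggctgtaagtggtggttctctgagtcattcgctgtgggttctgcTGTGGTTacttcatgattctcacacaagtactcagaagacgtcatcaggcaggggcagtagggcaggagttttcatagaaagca
The match began 13 bases before the start in Nkg7, 75 bases before it in Gzmk and 34 bases before it in Gzmb. GENCODE M21 places the start of the Gzmk gene elsewhere, at −44943 bases from the RefSeq start, that is upstream of it. Over both strands, the T-box letters were in 3.98% and the RUNX letters TGTGGTT (reverse complement AACCACA) in 5.27% of all 32851 promoters of this length. No match of either was in the promoters of Prf1 and Eomes, and no promoter was given for Ccl5. A match of letters is a description and not evidence of binding.

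Cytotoxic CD4+ Tc were found in every mouse. There were 80 and 53 of them in Havcr2fl/fl;E8icre/+ replicates 1 and 2, and 34 and 22 in Havcr2fl/fl replicates 1 and 2, with 288816, 315900, 181041 and 75415 UMIs. Their median depth was 3470, 5461, 5452.5 and 3322 UMIs per cell, close to that of the other CD4+ Tc of the same library (3954.5, 5268.5, 5583 and 2742). The fewest cells and UMIs thus came from Havcr2fl/fl replicate 2, whose values below are the least precise. Of the barcodes, 28 occurred in more than 1 library, and 0 of these were cytotoxic CD4+ Tc. The donor tag had medians of 1503, 1933, 2194.5 and 1305.5 UMIs, against 1698.5, 2012.5, 2457 and 1115 in the other CD4+ Tc, so that it was lower in 3 of 4 libraries, and 0 of the 189 cells had a low tag, taken as over 3 median absolute deviations under the library's median.

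Cd4 itself was shallow in these data. It was counted by 1 UMI in 59 of the 189 cells, by 2 in 34 and by 3 or more in 96. Erythroid cells, which lack Cd4 and had medians of 13081 to 24224 UMIs, showed a Cd4 UMI in 0% of cells after thinning to 2000 UMIs. Of the cytotoxic CD4+ Tc, 63.6% to 81.8% kept a Cd4 UMI after thinning. The rule had required a Cd4 UMI in each of them, so that their share is set by the rule and does not test single UMIs against background. Cytotoxic Tc with CD8 UMIs held a Cd4 UMI in 0.532% to 3.63% of cases. A further 36 cytotoxic Tc held UMIs of both coreceptors and 67 of neither, and these were left out.

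The 6 genes of the rule were counted in different shares of the 189 cells. Nkg7 was counted in 188 cells, Ccl5 in 186, Gzmk in 121, Gzmb in 90, Eomes in 81 and Prf1 in 71. Exactly 3 of the 6 genes were found in 84 cells, 4 in 59, 5 in 27 and all 6 in 19. The most frequent combinations were Ccl5, Gzmk and Nkg7 (34 cells) and Ccl5, Gzmb and Nkg7 (28 cells). Gzmk without Gzmb marked 75 cells, Gzmb without Gzmk 44, both 46 and neither 24. Eomes was counted in 31 of the 75 cells with Gzmk alone (41.3%) and in 4 of the 44 with Gzmb alone (9.09%), and these 4 were all from Havcr2fl/fl;E8icre/+ replicate 1. The median depth of these classes was 4235 and 3846 UMIs. Gzmk and Gzmb had medians of 0 to 1 UMI per cell, so that a cell without a UMI may still express the gene. Since a cell needed 3 genes to be chosen, the shares of the 6 genes depend on each other, and they are given with no test.

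The mix of granzymes differed between mice. Gzmk alone was found in 37.5% and 47.2% of the cytotoxic CD4+ Tc of Havcr2fl/fl;E8icre/+ replicates 1 and 2, in 52.9% of those of Havcr2fl/fl replicate 1 and in 9.09% (2 of 22) of those of Havcr2fl/fl replicate 2. Gzmb alone was found in 21.3%, 18.9%, 23.5% and 40.9% of them. The level of Ccl5, as CPM (the UMIs of the gene over all UMIs of the summed cells of a library, on the usual CPM scale), was 30864, 22115, 18024 and 21004 in the same order. Nkg7 was the most even gene of the rule, with 4103, 3954, 4071 and 3792 CPM. Gzmb was at 415, 225, 171 and 743 CPM and Prf1 at 222, 104, 71.8 and 345 CPM, both highest in Havcr2fl/fl replicate 2. Genotypes overlapped for Nkg7, Gzmb and Prf1. Gzmk was at 471, 323, 226 and 305 CPM and Eomes at 235, 184, 155 and 106 CPM, the latter with 10 and 5 positive cells behind the Havcr2fl/fl values. Ccl5, Gzmk and Eomes were higher in both Havcr2fl/fl;E8icre/+ libraries than in both Havcr2fl/fl libraries, as were 17.1% of the 3869 genes tested below. These genes chose the cells, and nothing is read from their order.

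The threshold lay in a range of continuous values. Among CD4+ Tc with none of Foxp3, Tcf7, Mki67 and Top2a, 75 held none of the 6 genes, 213 held 1, 146 held 2 and 84 held 3. In cells with exactly 2 genes, Ccl5 was at 6566, 2311, 2129 and 3527 CPM in the 4 libraries. In cells with exactly 3 genes it was at 16674, 10876, 11957 and 7196 CPM, and in those with 4 genes at 33119, 23504, 22326 and 34507 CPM. Ccl5 is 1 of the 6 genes counted to form these groups, so that its rise over them is partly set by the grouping. In addition, 444 CD4+ Tc held 3 or more of the 6 genes, and 50% to 62.4% of them per library were set aside because they held 1 of the 4 genes required to be absent. Top2a, of dividing cells, was found in 135, Mki67, another gene of dividing cells, in 122, Tcf7, of precursor cells, in 53 and Foxp3, of regulatory Tc, in 44.

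**Figure D1:**
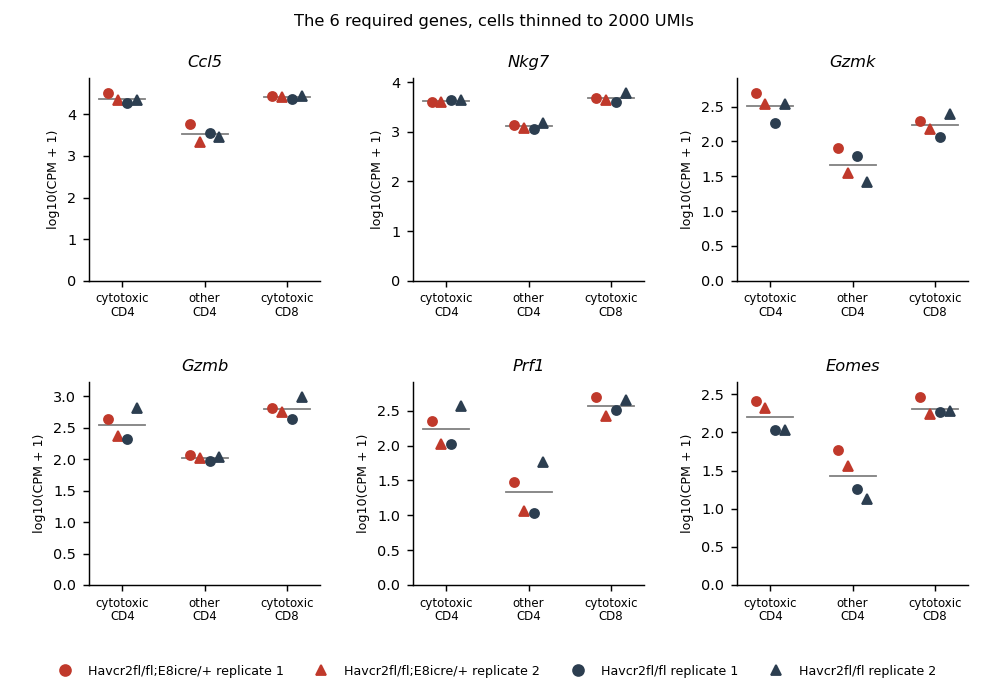
The 6 genes of the rule per library, as log10(CPM + 1) after thinning each cell to 2000 UMIs, in cytotoxic CD4+ Tc, the other CD4+ Tc and cytotoxic CD8+ Tc; each point is 1 library, gray lines are means of the log values of the 4 libraries. Ccl5 and Nkg7 lie close together over the libraries, while Gzmb and Prf1 spread more widely among cytotoxic CD4+ Tc.

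The share of cytotoxic cells was compared between genotypes to ask whether a cre that acts in CD8+ cells went with a different number of cytotoxic CD4+ Tc. They made up 13.9% and 8.43% of the CD4+ Tc of the 2 Havcr2fl/fl;E8icre/+ libraries and 13.9% and 7.07% of those of the 2 Havcr2fl/fl libraries. On average this was 11.2% ± 3.90 (SD, n = 2) against 10.5% ± 4.81 (SD, n = 2), so that replicates of a genotype differed more than the genotypes. The log2 ratio was 0.09 (exact permutation test, two-sided, p = 0.667, where 0.33 is the smallest p that 2 against 2 mice can give). Thinning to 2000 UMIs before the rule was applied gave 16.1%, 10.3%, 13.4% and 9.62%. The ratio depended on the threshold, with a log2 ratio of −0.26 with at least 2 of the 6 genes and 0.68 with at least 4, where the shares were 8.89% and 4.93% in Havcr2fl/fl;E8icre/+ and 5.71% and 2.89% in Havcr2fl/fl libraries. The direction also turned without either of 2 libraries, with −0.31 without Havcr2fl/fl;E8icre/+ replicate 1 and −0.31 without Havcr2fl/fl replicate 2. The same 6 genes and 4 absent genes were met by 38.5%, 34.5%, 37.7% and 44.1% of CD8+ Tc, so that the rule was more frequent in CD8+ Tc in 4 of 4 mice.

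**Figure D2:**
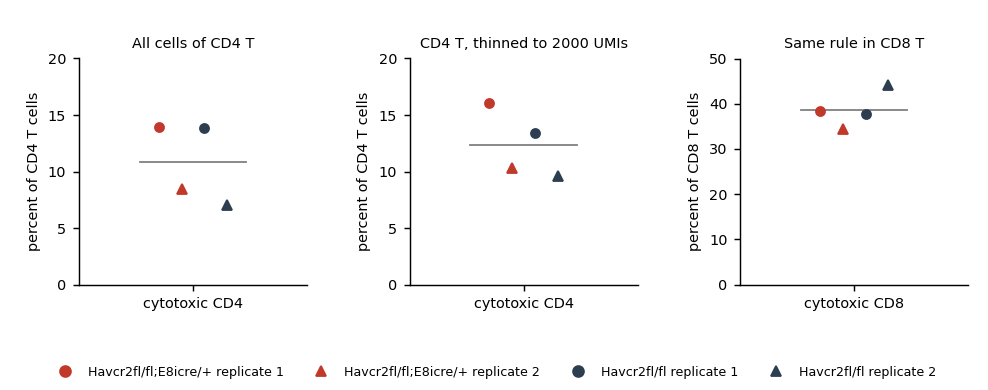
Percent of CD4+ Tc that were cytotoxic, before and after thinning to 2000 UMIs, and percent of CD8+ Tc that met the same rule; each point is 1 library, gray lines are means over the 4 libraries. The 2 genotypes overlap among CD4+ Tc, and shares of CD8+ Tc from 34.5% to 44.1% lie above those of CD4+ Tc.

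Against the other CD4+ Tc, cytotoxic CD4+ Tc were described and not tested, because the rule chose them by this contrast. Cells were thinned to 2000 UMIs, which left out 7 of the 189 cells and 77 of 1570 other CD4+ Tc, and log2 ratios are of mean CPM plus 1. Of 6590 genes outside the rule with a mean of 20 CPM in either class, 122 (1.85%) were higher in 4 of 4 libraries by at least 1 on the log2 scale and 302 (4.58%) were lower. Without a criterion of size, 522 (7.92%) were higher and 816 (12.4%) lower in 4 of 4 libraries. Cd7, a surface glycoprotein of Tc and NK cells, had the largest ratio of the 122 (2.39). The other CD4+ Tc include dividing, precursor and regulatory cells, which the rule kept out of the cytotoxic cells, and genes of division such as Hist1h2ap and Stmn1 were among the lower genes (log2 ratios of −2.65 and −1.72). Against the other CD4+ Tc that also lacked the 4 genes, 188 of 6637 genes (2.83%) were higher and 322 (4.85%) lower, and the ratios of Hist1h2ap and Stmn1 were 0.36 and 0.56.

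Ccl4 and Ccl3, chemokines that attract Tc and myeloid cells, were at 1981, 802, 1530 and 1921 CPM and at 870, 623, 606 and 816 CPM. In the other CD4+ Tc the values were 445, 207, 63.4 and 630 CPM and 136, 74.7, 34.1 and 414 CPM, giving log2 ratios of 2.21 and 2.14. Of the 9 measured cytokine and chemokine genes, Ifng, Ccl3 and Ccl4 were higher in 4 of 4 libraries by at least 1 and Ccl1 was lower. The same held for 1.85% (higher) and 4.58% (lower) of all genes, and the median log2 ratio of the list was 0.49. Ifng, the signature cytokine of type 1 responses, was at 305, 142, 121 and 342 CPM against 62.5, 61.5, 43.9 and 140 CPM.

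Of the 13 measured genes associated with exhaustion, 5 were higher in 4 of 4 libraries by at least 1 and 0 were lower. Of all 6590 genes, 1.85% were higher and 4.58% lower in this way. The median log2 ratio was 1.04 in the list and −0.015 over all genes. The 5 higher genes were Nr4a2, Cd160, Lag3, Havcr2 and Entpd1. Lag3, an inhibitory receptor that binds MHC class II, was at 319 ± 81.3 against 118 ± 17.7 CPM. Havcr2 was at 169, 56.6, 45.5 and 237 CPM against 51.0, 26.4, 14.6 and 35.6 CPM, a log2 ratio of 1.96. Pdcd1, the gene of PD-1, and Tox, a factor that sustains exhausted Tc, were higher in 3 of 4 libraries with log2 ratios of 0.44 and 0.49. A Havcr2 UMI was found after thinning in 24.7%, 9.43%, 9.09% and 31.6% of cytotoxic CD4+ Tc, in 2.93% to 7.92% of the other CD4+ Tc and in 0% to 0.27% of erythroid cells.

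Killing genes that the rule did not use were also described. Of 17 measured, 7 were higher in 4 of 4 libraries, against 7.92% of all genes, and 1 of these by at least 1, Fasl, the ligand of the death receptor Fas, with 123, 160, 90.9 and 211 CPM against 34.4, 50.1, 34.1 and 31.4 CPM. The lysosomal gene Lamp1 and Serpinb6a were lower by at least 1. Gzma, a granzyme that the rule left out, was at 136, 679, 0 and 2500 CPM and ranged more widely between mice than any gene of the rule. In Havcr2fl/fl replicate 1 no Gzma UMI was left after thinning, and in the other 3 libraries the gene was above the other CD4+ Tc.

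Genes of naive and memory precursor cells were mostly lower. Of 10 measured, 8 were lower in 4 of 4 libraries, against 12.4% of all genes, and 6 of these by at least 1, among them Bcl2, Slamf6, Id3, Il7r and Satb1, with a median log2 ratio of −1.13. Of the same 10, 1 was higher in 4 of 4 libraries, against 7.92% of all genes, and 0 by at least 1. Cd27, of this list, was counted after thinning in 51.3% of cytotoxic and 29.7% of other CD4+ Tc (means of 4 libraries). Il7r, the IL-7 receptor chain that long-lived cells keep, was at 84.4, 236, 379 and 132 CPM against 760, 655, 1061 and 519 CPM. Id3, an inhibitor of E proteins, was at 0 CPM in all 4 libraries of cytotoxic CD4+ Tc and at 38.5, 85.2, 61.0 and 92.1 CPM in the other CD4+ Tc. Tcf7, a factor of the same cells, was among the genes required to be absent, while 25.2% of the other CD4+ Tc held it after thinning (mean of 4 libraries). Lower values in this list are therefore partly set by the rule. Of 20 measured effector and lineage transcription factors, 3 were higher and 2 lower in 4 of 4 libraries, against 7.92% and 12.4% of all genes. The median log2 ratio of the 20 factors was 0.080. Among them, Runx3 and Irf8 were higher and Gata3 lower by at least 1. Irf8, an interferon regulatory factor, had a log2 ratio of 1.03. Runx3, which CD8+ Tc use to fix their fate, had one of 1.34 (247, 491, 561 and 211 CPM against 139, 131, 195 and 128 CPM). Gata3, the factor of type 2 helper cells, had a log2 ratio of −1.44. Zbtb7b, the gene of ThPOK that fixes the CD4 fate, was at 63.7 ± 40.2 against 58.5 ± 20.6 CPM and was higher in 2 of 4 libraries.

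**Figure D3:**
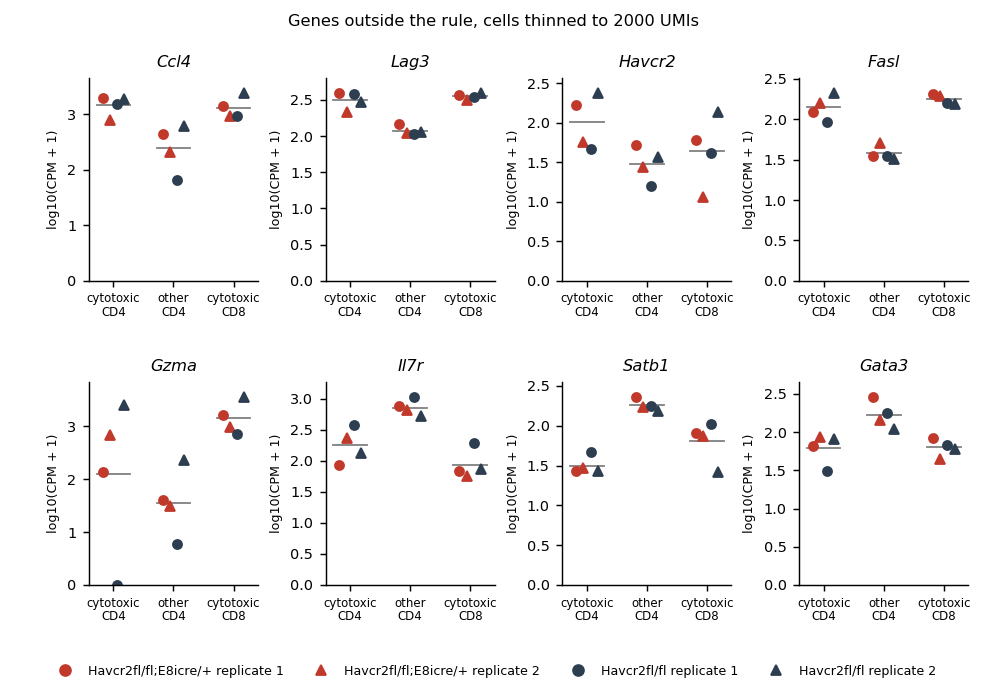
Genes outside the rule per library, as log10(CPM + 1) after thinning each cell to 2000 UMIs; each point is 1 library, gray lines are means of the log values of the 4 libraries. Ccl4, Lag3, Havcr2 and Fasl are higher in cytotoxic than in other CD4+ Tc of each library, Il7r, Satb1 and Gata3 are lower, and Gzma ranges from 0 to 2500 CPM.

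Cytotoxic CD4+ Tc were next compared with the 1671 CD8+ Tc that met the same rule for the 6 and the 4 genes, within the same mice. This asks which genes still tell the lineages apart once both carry the killing program. UMIs were summed per library and class and tested with edgeR's quasi-likelihood test with the mouse as a block (Benjamini-Hochberg adjusted p under 0.05). Counts in each gene list below are to be read against the shares over all genes tested. Of 7243 genes outside the rule, 125 (1.73%) were higher in cytotoxic CD4+ Tc and 101 (1.39%) were lower. The numbers were 64 and 68 in cells with at least 4 of the 6 genes, 55 and 76 after thinning, and 270 and 205 with at least 2 genes. They were also smaller without Havcr2fl/fl;E8icre/+ replicate 1 (63 and 38) and without Havcr2fl/fl replicate 1 (59 and 42), with DESeq2 (81 and 46) and with no mouse block (65 and 33).

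Cd40lg, Il21 and Maf were among the 12 genes with the largest increase. Cd40lg, the CD40 ligand by which CD4+ Tc license B cells and dendritic cells, was at 16.7, 26.4, 77.8 and 27.0 TMM-scaled CPM in cytotoxic CD4+ Tc against 0, 2.71, 2.49 and 0.619 CPM in cytotoxic CD8+ Tc (log2 fold change 4.49, SE 0.55, adjusted p = 6.3e-06). Il21, a cytokine that sustains CD8+ Tc and B cells, was at 93.3, 36.3, 83.3 and 122 CPM against 5.85, 9.74, 5.81 and 4.95 CPM (3.48, SE 0.38, adjusted p = 1.1e-06). Maf, a transcription factor of IL-21 and IL-10 producing helper cells on chromosome 8 (115682942 to 115707794, GRCm38), had the smallest adjusted p of these 3 genes. It was at 1046, 515, 567 and 406 CPM against 71.0, 95.8, 71.4 and 65.0 CPM (3.03, SE 0.19, adjusted p = 2.3e-11). In each of these genes the lowest CD4 value was above the highest CD8 value.

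Costimulatory genes were called in both directions. Of 13 tested costimulatory receptors and ligands, 5 were higher (Cd28, Cd40lg, Icos, Tnfrsf18 and Tnfrsf4) and 2 lower (Cd226 and Tnfrsf9), with a median log2 fold change of 0.25 against −0.0024 over all genes tested. Tnfrsf4, the gene of OX40, was at 320, 195, 267 and 460 CPM against 29.2, 29.2, 39.0 and 55.7 CPM (3.03, SE 0.16, adjusted p = 1.3e-12). Icos was higher by 1.62 (SE 0.18, adjusted p = 1.3e-06) and Cd28 by 1.19 (SE 0.15, adjusted p = 6.3e-06). Tnfrsf9, which encodes 4-1BB, lost its call without either replicate 1 library. Of 8 tested genes that also mark regulatory Tc, 4 were higher (Capg, Izumo1r, Tnfrsf18 and Tnfrsf4) and 0 lower, in cells chosen to lack Foxp3. Capg went from a log2 fold change of 1.22 to 0.67 with at least 4 of the 6 genes (edgeR adjusted p = 0.679). It was also not called after thinning (edgeR adjusted p = 0.305) or with at least 2 Cd4 UMIs (0.0840).

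Of 20 tested transcription factors, 2 were higher and 2 lower. Zbtb7b was at 60.0, 42.9, 38.9 and 54.1 CPM against 10.5, 17.3, 9.96 and 9.91 CPM (1.99, SE 0.34, adjusted p = 0.00064), and Maf is given above. Ikzf3 and Irf8, factors of lymphocyte differentiation, had log2 fold changes of −0.56 and −0.90 and lost their calls without 3 of the 4 libraries in turn, those being both replicate 1 libraries and Havcr2fl/fl replicate 2. Runx3 was at 270, 442, 444 and 284 CPM against 514, 532, 541 and 429 CPM and missed the threshold (log2 fold change −0.51, SE 0.15, adjusted p = 0.057). The adjusted p of Zbtb7b without Havcr2fl/fl;E8icre/+ replicate 1 was 0.0502.

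On the CD8 side stood the receptors shared with NK cells. Of 7 tested killer lectin receptors, 5 were lower in cytotoxic CD4+ Tc (Klrc1, Klrc2, Klrd1, Klre1 and Klrk1) and 0 higher. Over all genes tested, 1.39% were lower and 1.73% higher. The median log2 fold change of the 7 receptors was −1.28. Klrc1, which pairs with Klrd1 as the inhibitory receptor NKG2A/CD94, was at 26.7, 46.2, 27.8 and 27.0 CPM against 100, 159, 158 and 115 CPM (−1.99, SE 0.22, adjusted p = 2.0e-06). Klrk1, the gene of the activating receptor NKG2D, was at 23.3, 0, 38.9 and 40.6 CPM against 68.2, 95.2, 102 and 94.1 CPM (−2.10, SE 0.37, adjusted p = 0.00084), and DESeq2 gave it an adjusted p of 0.341. The 5 genes lie in the NK gene complex of chromosome 6, and reads of the closely alike Klrc1 and Klrc2 could be split between them. Klre1 lost its call without any of 3 libraries, that is all but Havcr2fl/fl replicate 2.

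Tff1 (chromosome 17, 31161395 to 31165277, GRCm38), which encodes a secreted trefoil peptide, had 0 UMIs in all 189 cells and 179, 45, 76 and 111 UMIs in the cytotoxic CD8+ Tc of the 4 libraries. Weighted by the UMIs of cytotoxic CD4+ Tc in each library, the level in CD8+ Tc was 49.996 CPM, and 3 UMIs over the summed cytotoxic CD4+ Tc would be 3.48 CPM, so that it was at least 14.35-fold lower, with counting error of the CD4 side alone considered. The other genes with the largest decrease included Slc16a11, a monocarboxylate transporter, Jaml, an adhesion receptor, Spry2, an inhibitor of receptor tyrosine kinase signaling, and Cerk, Filip1, Gpatch4, Rnf165, Glp1r and Srgap3. Of these, Slc16a11, Jaml and Spry2 were past the threshold under all alternatives that tested them. Without Havcr2fl/fl;E8icre/+ replicate 1, Cerk, Filip1, Gpatch4, Rnf165, Glp1r and Srgap3 were not, with adjusted p from 0.0868 to 0.286.

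Among the higher genes of largest size were also Penk, the precursor of enkephalins, Cd81, a tetraspanin, Podnl1 and Igfbp7, which encode matrix proteins, and Ifitm2, Ass1, Tmem154 and Esm1. Penk was at 260, 23.1, 5.55 and 162 CPM against 14.4, 3.79, 4.98 and 10.5 CPM and so varied widely between mice, and its value of 5.55 CPM in Havcr2fl/fl replicate 1 was 1 UMI, so that the order within that mouse rests on a single UMI. Podnl1 varied less, with 290, 152, 261 and 243 CPM against 25.7, 38.4, 24.1 and 22.9 CPM (3.02, SE 0.22, adjusted p = 7.4e-10). Tmem154 and Esm1 were not called without Havcr2fl/fl;E8icre/+ replicate 1 (adjusted p = 0.0778 and 0.0700). Ifitm2 had a log2 fold change of −0.11 in cells with at least 4 of the 6 genes.

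**Figure D4:**
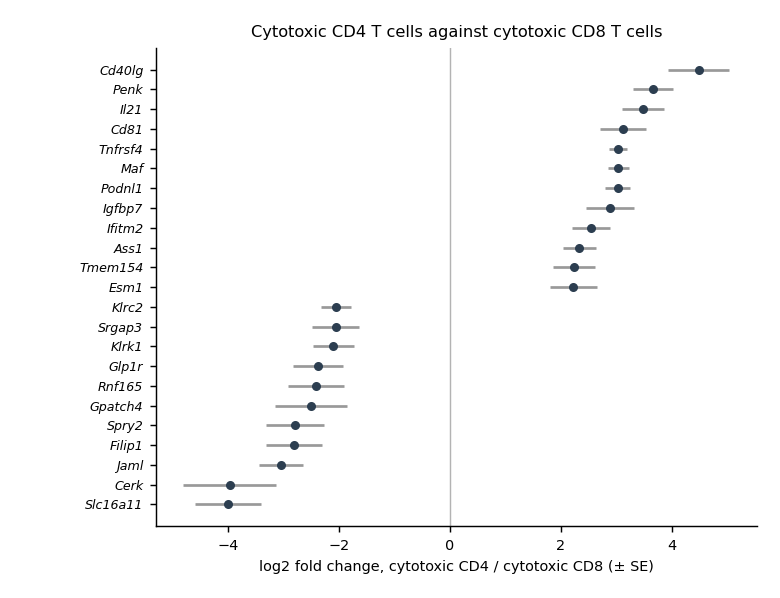
Log2 fold change with its SE (edgeR, mouse as a block, 4 libraries) of cytotoxic CD4+ Tc against cytotoxic CD8+ Tc for the genes with the largest change in each direction; Tff1, with 0 UMIs in cytotoxic CD4+ Tc, is not drawn. Cd40lg has the largest increase (4.49), and Slc16a11 has the largest decrease of those drawn (−4.01).

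Killing genes outside the rule were compared as well. Of 17 tested, 1 was higher (Srgn, the granule proteoglycan) and 3 lower (Ctsw, Gzma and Serpinb6b), with a median log2 fold change of −0.30, and 13 of the 17 did not pass the threshold. Gzma was at 123, 782, 5.55 and 3381 CPM in cytotoxic CD4+ Tc and at 1586, 1125, 753 and 3871 CPM in cytotoxic CD8+ Tc (−1.86, SE 0.44, adjusted p = 0.015). It was lower in 4 of 4 mice, by little in Havcr2fl/fl replicate 2, and was not called without either replicate 1 library (adjusted p = 0.281 and 0.184), with no mouse block (0.836) or by DESeq2 (0.513). Srgn and Ctsw also lost their calls without either replicate 1 library, and Serpinb6b without either Havcr2fl/fl;E8icre/+ library (adjusted p = 0.136 and 0.122). Ccl3 and Ccl4 had log2 fold changes of 0.10 (SE 0.14) and 0.042 (SE 0.12), with adjusted p of 0.861 and 0.938. Ifng, at 303, 145, 161 and 230 CPM against 118, 120, 145 and 150 CPM, was higher by 0.69 (SE 0.17, adjusted p = 0.026), but had an adjusted p of 0.697 without Havcr2fl/fl;E8icre/+ replicate 1 and 0.0503 without Havcr2fl/fl replicate 1.

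Of 14 tested genes associated with exhaustion, 3 were lower (Cd160, Cd244a and Nr4a2) and 0 higher, with a median log2 fold change of −0.30. Cd244a was not called by DESeq2 (adjusted p = 0.254), and Nr4a2 not in cells with at least 4 of the 6 genes (−0.22, adjusted p = 0.865), after thinning or with no mouse block. Cd160, a receptor of the ligand HVEM, was at 46.6, 132, 133 and 81.1 CPM against 268, 355, 337 and 377 CPM (−1.75, SE 0.18, adjusted p = 4.6e-07). Pdcd1, Lag3 and Tox had log2 fold changes of −0.34 (SE 0.14), −0.36 (SE 0.15) and −0.18 (SE 0.13), and the adjusted p was 0.268, 0.260 and 0.661. Of 8 tested precursor genes, 4 were higher (Il7r, Lef1, S1pr1 and Slamf6) and 1 lower (Satb1). Slamf6 was at 117, 102, 156 and 108 CPM against 27.7, 28.7, 52.3 and 30.3 CPM (1.83, SE 0.20, adjusted p = 1.7e-06). Lef1, S1pr1 and Satb1 lost their calls without Havcr2fl/fl;E8icre/+ replicate 2 and without Havcr2fl/fl replicate 1, and Satb1 also without Havcr2fl/fl;E8icre/+ replicate 1. Il7r turned to −0.94 in cells with at least 4 of the 6 genes, and S1pr1 to −0.64 after thinning.

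Genes of homing and retention moved in both directions. Of 16 tested, Ccr2, Cxcr3 and Itgb1 were higher and Cxcr6, Itga1 and Ly6c2 lower. Cxcr3, the receptor of interferon-induced chemokines, was at 177, 116, 139 and 149 CPM against 57.7, 79.5, 93.0 and 65.6 CPM, and Cxcr6 at 290, 393, 472 and 379 CPM against 594, 642, 615 and 565 CPM. Ccr2, Cxcr3, Cxcr6 and Itga1 lost their calls without Havcr2fl/fl;E8icre/+ replicate 1, and Itgb1 lost it without Havcr2fl/fl replicate 1. Of 10 tested TCR complex genes, Cd247, Cd5 and Cd6 were higher and 0 lower. Cd5, which dampens TCR signaling, was at 217, 248, 383 and 135 CPM against 86.6, 87.1, 92.2 and 89.8 CPM (1.50, SE 0.16, adjusted p = 1.0e-06).

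The remaining lists gave few calls. Eno1 was the 1 higher gene of 13 glycolysis genes, Ifi27l2a the 1 higher of 11 interferon response genes, Bcl2l1 and Bcl2l11 the 1 higher and 1 lower of 12 survival genes, and 0 of 6 cell cycle genes, 0 of 3 genes of TIM-3 ligands and adaptor, 0 of 2 MHC class II genes and 0 of 4 sex-linked genes were called. Eno1 lost its call without any of 3 libraries, that is all but Havcr2fl/fl;E8icre/+ replicate 2, and Bcl2l1 without any library in turn. Bcl2l11 lost its call without Havcr2fl/fl replicate 1. Ifi27l2a had a log2 fold change of 0.82, which fell to 0.25 with at least 4 of the 6 genes (edgeR adjusted p = 0.664). It was also not called with no mouse block (edgeR adjusted p = 0.218).

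RNA of other cell types was measured beside these results. NK and innate-like Tc markers summed to 38.1, 108, 55.2 and 26.5 CPM in cytotoxic CD4+ Tc and to 141, 369, 170 and 145 CPM in cytotoxic CD8+ Tc. Both tested genes of that list (Fcer1g and Trgv2) were lower in cytotoxic CD4+ Tc, and Fcer1g lost its call without Havcr2fl/fl;E8icre/+ replicate 2. After thinning, 6 of 11 genes of that list, among them Ncr1, Zbtb16 and Trdc, were at 0% of cytotoxic CD4+ Tc, while Trgv2 was counted in 3.96%, Fcer1g in 1.92% and Tyrobp in 0.76% of them (means of 4 libraries). Myeloid and leukemia markers summed to 277, 190, 254 and 345 CPM, B cell markers to between 348 and 822 CPM and megakaryocyte markers to 3.46, 0, 0 and 0 CPM. Of 12 myeloid and leukemia markers 4 were at 0% of cells after thinning, among them Lyz2 and Csf1r, while Cst3 was counted in 27.6%, S100a9 in 5.45% and S100a8 in 4.66%. Of 10 B cell markers 7 were at 0%, among them Cd79a and Ms4a1, while Igkc was counted in 38.6% and Ighm in 14.2%. In the other CD4+ Tc, Cst3 was counted in 28.9%, Igkc in 33.4% and Ighm in 21.1% of cells. Of the B cell markers, 1 of 2 tested, Ighm, was higher (102 ± 10.2 against 56.7 ± 16.8 CPM, adjusted p = 0.0073), and it lost its call without either replicate 1 library. S100a8 and S100a9 were lower in cytotoxic CD4+ Tc, and 92.1% of the myeloid marker UMIs of the cytotoxic CD8+ Tc of Havcr2fl/fl replicate 1 came from 1 cell. Without the cells that held over 1% of their UMIs on such markers, S100a8 had a log2 fold change of −0.04 and S100a9 of −0.06, and without Havcr2fl/fl replicate 1 they had −0.19 and −0.21.

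Erythroid markers varied between libraries in both lineages. In cytotoxic CD4+ Tc they summed to 398 CPM in Havcr2fl/fl;E8icre/+ replicate 1, 19949 CPM in replicate 2, and 514 and 1273 CPM in Havcr2fl/fl replicates 1 and 2. Of the 6302 erythroid UMIs of Havcr2fl/fl;E8icre/+ replicate 2, 54.0% came from 1 of its 53 cytotoxic CD4+ Tc, and 2 cells held over 1% of their UMIs on these markers. In cytotoxic CD8+ Tc they summed to 3630, 417, 4208 and 4733 CPM, with 6, 0, 2 and 5 cells over 1%, so that Havcr2fl/fl;E8icre/+ replicate 2 was highest in CD4+ and lowest in CD8+ Tc. The most abundant of them, Hbb-bs, had 36, 3365, 33 and 23 UMIs in the cytotoxic CD4+ Tc of the 4 libraries. Doublets were not called, and the part of such cells in other results was not tested beyond leaving them out.

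Within cytotoxic CD4+ Tc, the genotypes were compared to ask whether the cells differed where cre acted in CD8+ cells of the same graft. With edgeR, 0 of 3869 genes outside the rule (0%) passed an adjusted p of 0.05 in either direction, 159 had an unadjusted p under 0.05 (82 higher and 77 lower in Havcr2fl/fl;E8icre/+), and DESeq2 called 0 with 27 at an unadjusted p under 0.05. In Havcr2fl/fl 256456 UMIs stood behind the comparison, against 604716 in Havcr2fl/fl;E8icre/+. None of the gene lists had a called member.

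Havcr2 (chromosome 11) was at 142 and 80.2 TMM-scaled CPM in the cytotoxic CD4+ Tc of the libraries labelled Havcr2fl/fl;E8icre/+ replicates 1 and 2 and at 55.1 and 227 CPM in those of Havcr2fl/fl replicates 1 and 2, from 39, 22, 9 and 15 UMIs. This gave a log2 fold change of −0.04 (SE 0.57, edgeR adjusted p = 1.0), and the genotypes overlapped. On the scale of the fit over both lineages, cytotoxic CD4+ Tc had 129 and 72.0 CPM against 49.2 and 192 CPM, and cytotoxic CD8+ Tc had 67.6 and 14.1 CPM against 62.2 and 150 CPM. Thus Havcr2 RNA was low in the CD8+ Tc of the library labelled Havcr2fl/fl;E8icre/+ replicate 2, and in the library labelled replicate 1 it was not below Havcr2fl/fl replicate 1. Which part of the gene cre removes is not given in the sources used here, and 3′ counts outside it would not check the labels. The genotype effect on Havcr2 differed by 1.30 between the lineages (SE 0.42, edgeR adjusted p = 0.644). Between the lineages themselves, Havcr2 was higher in cytotoxic CD4+ Tc in 3 of 4 mice and missed the threshold (log2 fold change 0.85, SE 0.26, edgeR adjusted p = 0.0747).

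The genes with the smallest p in the genotype comparison were Ly6c2 and Il18r1, both lower in Havcr2fl/fl;E8icre/+. Ly6c2, a marker of activated and memory cells, was at 54.6 and 51.1 CPM against 220 and 181 CPM (log2 fold change −1.95, SE 0.36, adjusted p = 0.595). Il18r1, a chain of the IL-18 receptor, was at 120 and 153 CPM against 459 and 348 CPM (−1.59, SE 0.32, adjusted p = 0.595). Neither passed the threshold. The groups did not overlap, as for 16% of all genes tested in this direction. Ly6c2, Il18r1 and Ifitm1 were called lower when CD4+ Tc needed at least 2 Cd4 UMIs, an alternative chosen after the data were seen. Maf, Ifng, Fasl, Lag3 and Pdcd1 had overlapping genotypes, with log2 fold changes of 0.65, 0.25, 0.42, 0.21 and −0.11 and SE of 0.41, 0.40, 0.39, 0.33 and 0.31.

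The genotype effect was also compared between cytotoxic CD4+ and cytotoxic CD8+ Tc. Of 8195 genes, 9 (0.11%) had a higher effect in cytotoxic CD4+ Tc and 2 (0.0244%) a lower one (edgeR, mouse as a block, adjusted p under 0.05), and DESeq2 called 0 with 61 at an unadjusted p under 0.05. The 11 genes included the erythroid genes Alas2, Hbb-bt, Hba-a1, Hba-a2 and Hbb-bs and the myeloid genes S100a8 and S100a9. Without the cells holding over 1% of their UMIs on markers of other lineages, 2 genes were called, Tigit and Trbc1, and both were among the 11. Plac8, also among the 11 and a gene of activated and memory cells, was at 59.4 and 42.5 CPM against 137 and 205 CPM in cytotoxic CD4+ Tc and at 211 and 251 CPM against 246 and 218 CPM in cytotoxic CD8+ Tc. It passed the threshold under 1 of 15 alternatives and under none that left out a library.

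Tigit, an inhibitory receptor that binds CD155, was at 46.2 and 26.2 CPM in the cytotoxic CD4+ Tc of Havcr2fl/fl;E8icre/+ and at 10.9 and 12.8 CPM in those of Havcr2fl/fl, from 14, 8, 2 and 1 UMIs. In cytotoxic CD8+ Tc it was at 6.61 and 5.44 CPM against 34.0 and 31.2 CPM, from 17, 10, 41 and 50 UMIs. The genotypes lay apart in both lineages and in opposite directions (difference 4.08, SE 0.88, adjusted p = 0.0062). The call was lost without any of 3 libraries, that is all but Havcr2fl/fl;E8icre/+ replicate 2, and by DESeq2 (adjusted p = 1.0). Trbc1, 1 of the 2 constant genes of the TCR β chain, was at 1494 and 465 CPM against 1749 and 2129 CPM in cytotoxic CD4+ Tc and at 1439 and 1184 CPM against 1340 and 929 CPM in cytotoxic CD8+ Tc (difference −1.41, SE 0.26, adjusted p = 0.00026). It was lowest in Havcr2fl/fl;E8icre/+ replicate 2, and without that library the difference was −0.68 and not called. The call was also lost without either Havcr2fl/fl library and by DESeq2.

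**Figure D5:**
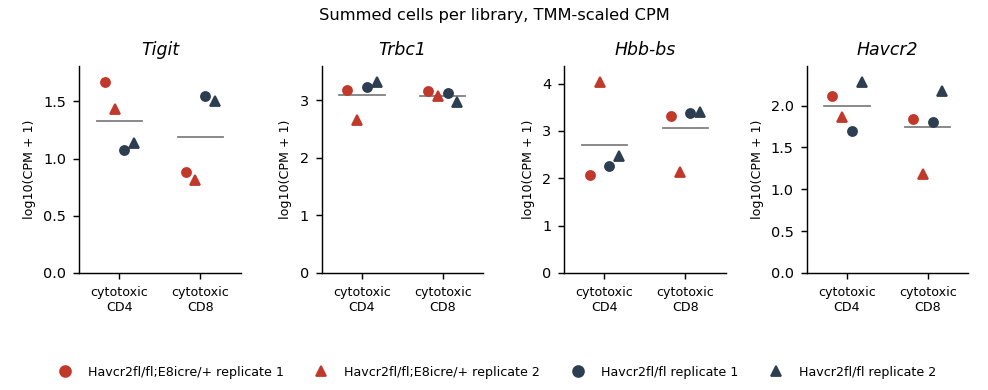
Tigit, Trbc1, Hbb-bs and Havcr2 per library, as log10(TMM-scaled CPM + 1) of summed cells; each point is 1 library, gray lines are means of the log values of the 4 libraries. Tigit orders the genotypes in opposite ways in the 2 lineages, Trbc1 is lowest in the cytotoxic CD4+ Tc of Havcr2fl/fl;E8icre/+ replicate 2, and Hbb-bs is highest there.

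The TCR V genes were read where 3′ counts allowed. A single Vβ gene was seen in 10, 23, 9 and 7 cytotoxic CD4+ Tc of the 4 libraries. In Havcr2fl/fl;E8icre/+ replicate 2, Trbv19 was in 9 of 23 such cells (39.1%), in 9 of 149 other CD4+ Tc (6.04%) and in 1 of 124 cytotoxic CD8+ Tc (0.806%). The next was Trbv15 in 3 of 23. In Havcr2fl/fl;E8icre/+ replicate 1, Trbv13-1 and Trbv29 were each in 4 of 10 cells, and Trbv29 was also in 34 of 116 cytotoxic CD8+ Tc (29.3%). The most frequent were Trbv12-2 and Trbv14 with 2 of 9 cells each in Havcr2fl/fl replicate 1, and Trbv16 with 3 of 7 and Trbv13-2 with 2 of 7 cells in Havcr2fl/fl replicate 2. Of the Vα genes, Trav14n-3 was in 5 of 9 cells with a single Vα gene in Havcr2fl/fl;E8icre/+ replicate 1, and Trav3-3 was the most frequent in both Havcr2fl/fl;E8icre/+ replicate 2 (3 of 17) and Havcr2fl/fl replicate 1 (3 of 7). In Havcr2fl/fl replicate 2 only 2 cells had one. V genes share sequence, and 10 or fewer cells stand behind the shares of 3 libraries.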

How the data were processed

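The deposited matrices hold UMI counts per gene and cell barcode that the authors made with Cell Ranger 6.1.2 on mm10, 1 matrix per mouse, without normalization. Reads were not processed again. Barcodes were kept if they had 500 or more genes, 1000 or more gene UMIs and no more than 10% of UMIs from mitochondria. Doublets were not called. The members and gene lists were chosen with earlier results of these data known.

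UMIs were summed per library and class, and the sums of cytotoxic CD4+ Tc are given above. The sums of each class were fitted with edgeR 4.0.16 in R 4.3.3 (TMM scaling, filterByExpr, quasi-likelihood test, two-sided, Benjamini-Hochberg adjustment over all genes). The mouse was a block between lineages. The SE of a log2 fold change was derived as its absolute value over the square root of the test's F statistic. The 17 genes of the rule and gate stayed in the fits and out of the counts. Fits were tested on simulated data. P-values between genotypes measure the spread between 2 mice per genotype, and those between lineages the spread of within-mouse differences over 4 mice. For levels against other CD4+ Tc, cells were thinned to 2000 UMIs. Intervals of shares were not used because cells of a mouse are not replicates. Gene positions are from GENCODE M21 (GRCm38), which held 99.6% of the gene identifiers.

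Genes were named by list and, between lineages, as up to 12 per direction with the largest change past the threshold in 4 of 4 mice and a mean of at least 20 CPM in the higher class. Clone names and V genes were left out of these 12. A few genes that enter the counts are not reported here by name. Between genotypes, the genes with the smallest p were named. Against other CD4+ Tc, the 15 highest and 10 lowest log2 ratios with the same direction in 4 of 4 libraries and a mean of at least 100 CPM in the higher class could be named. In the genotype effect between lineages, genes past the threshold were named. Alternatives were other cell filters, other numbers of required genes, thinning, the donor tag, DESeq2 1.42.0 as a test or for scaling, no filter on low counts, other blocks and leaving out each library.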

Additional observations from a re-analysis of the deposited data

Results flagged for a closer look

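The genotype effect, Havcr2fl/fl;E8icre/+ against Havcr2fl/fl, differed between cytotoxic CD4+ and cytotoxic CD8+ Tc in 11 genes by the test of the difference itself (edgeR, adjusted p under 0.05), and DESeq2 called 0 of them. As log2 differences, CD4 effect minus CD8 effect, Tigit was at 4.08, Trbc1 at −1.41 and Plac8 at −1.63. The erythroid genes were at 4.85 (Hbb-bs), 5.09 (Hba-a2), 5.11 (Hba-a1), 5.23 (Hbb-bt) and 10.3 (Alas2), and the myeloid genes S100a9 and S100a8 at 4.44 and 5.82. Without Havcr2fl/fl;E8icre/+ replicate 2, Hbb-bs, Hba-a2, Hba-a1 and Hbb-bt turned to −0.61, −0.95, −1.18 and −0.80, and without Havcr2fl/fl replicate 1 S100a9 turned to −2.33. For Alas2, 3 of the 4 cytotoxic CD4+ Tc libraries had 0 UMIs, so that its value depends on the prior count and is no measure of size. Of the S100a8 UMIs in cytotoxic CD8+ Tc, 2356 were in Havcr2fl/fl replicate 1, against 39, 23 and 13 in the other libraries. Tigit rests on few UMIs, with 2 and 1 in the cytotoxic CD4+ Tc of the Havcr2fl/fl libraries. The Plac8 call was lost in 14 of 15 alternatives, among them leaving out any library. Why Tigit, Trbc1 and Plac8 differed was not tested.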

How the results depend on the processing

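The log2 ratio of the share of cytotoxic cells was 0.68 with at least 4 of the 6 genes, turned to −0.26 with at least 2 and ran from −0.31 to 0.66 when 1 library was left out. Within cytotoxic CD4+ Tc, genotype calls went from 0 to 1 higher and 2 lower with at least 2 genes, to 3 lower with at least 2 Cd4 UMIs, and to between 0 and 9 higher and 0 and 8 lower without 1 library (6 and 2 without Havcr2fl/fl;E8icre/+ replicate 1, 9 and 8 without Havcr2fl/fl replicate 2), where the lone mouse is assumed to vary like the others. The replicate block gave 0 higher and 0 lower. Deviations of equally numbered libraries correlated by 0.022 over 1786 genes, so the numbers are not taken to pair mice.

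Between lineages, 125 higher and 101 lower genes became 270 and 205 with at least 2 genes, 64 higher with at least 4, 55 higher after thinning, 81 and 46 with DESeq2, 65 and 33 with no mouse block, 216 lower with no filter on low counts, and 59 to 120 higher and 38 to 115 lower without 1 library. Of 68 named genes called there, 26 passed under every alternative that tested them. Ifitm2 (−0.11) and Il7r (−0.94) reversed with at least 4 genes, S100a8 (0.86) and S100a9 (0.70) with at least 2, and S1pr1 (−0.64) after thinning. The cause was not tested.

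For the genotype effect between lineages, 9 higher and 2 lower genes became 3 higher with at least 2 Cd4 UMIs, 4 and 6 with at least 2 genes, 2 and 1 with at least 4, 1 and 1 without cells holding RNA of other lineages, 2 and 1 with tagged cells only or DESeq2 size factors, 0 higher after thinning, 0 and 0 with DESeq2, 1 lower with stricter cell filters or no count filter, and 0 to 16 higher and 0 to 2 lower without 1 library. Hba-a1 reversed to −0.10 and Hba-a2 to −0.64 without those cells, Hba-a1 to −0.43 after thinning, and Hba-a1, Hba-a2, Hbb-bs and Hbb-bt to −1.18, −0.95, −0.61 and −0.80 without Havcr2fl/fl;E8icre/+ replicate 2, with 9.94, 9.65, 9.86 and 9.37 as their highest values without 1 library. S100a8 reversed to −5.06 with at least 2 genes and −0.58 after thinning, and S100a9 to −4.62 and −2.07, to −1.14 without those cells and to −2.33 without Havcr2fl/fl replicate 1 (highest without 1 library 5.01). Havcr2 between genotypes reversed to 0.096 with stricter cell filters, 0.34 and 0.77 with at least 2 and 4 genes, 0.085 with no count filter, and ran from −1.02 to 1.00 without 1 library. Against other CD4+ Tc, 188 in place of 122 genes were higher and 322 in place of 302 lower where those also lacked the 4 genes. Depth limits genes with few UMIs in the 22 cells of Havcr2fl/fl replicate 2.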
